A study of Mus musculus with 12 samples.

Results

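The 4 genes of calcium/calmodulin-dependent protein kinase II (CaM kinase II), Camk2a, Camk2b, Camk2d and Camk2g, were taken from the deposited gene models by gene name. They held 50 of the 87740 transcripts and 712 of the 624665 exon lines. The models belong to an RNA-seq study of the nucleus accumbens (NAc), a reward region of the ventral striatum, in mice that the labels give as C57BL/6 and 8 to 10 weeks old. In the repeated arm, 3 pools received cocaine at 20 mg/kg by intraperitoneal injection for 7 days and 3 pools received saline for 7 days. In the acute arm, 3 pools received saline for 6 days and cocaine at 20 mg/kg on 1 day, and 3 further pools received saline for 7 days. Each of the 12 samples was a pool of 3 to 5 animals, and NAc tissue is a mixture of neurons and glia. The models carry no counts or expression values, so the cocaine and saline groups could not be compared from them, nor could the depth of the pools be read. What follows describes how the 4 genes were modelled, not which transcripts were present in NAc.

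CaM kinase II is a serine/threonine kinase that is switched on by calcium-bound calmodulin and is abundant at glutamatergic synapses, where it is known for its part in synaptic plasticity. Each subunit carries a kinase domain, a regulatory segment that binds calmodulin, a linker of variable length and a hub domain through which subunits assemble into a holoenzyme. Camk2a and Camk2b are known as the main forms in neurons, and Camk2d and Camk2g are found in many tissues, with Camk2d prominent in heart. Alternative splicing of the linker is the known source of most of the named isoforms.

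The stretch of each gene between a constant 43-base exon and a constant 76-base exon, which codes for the linker, held 12 variable exons. An exon was called constant where every coding transcript that spans it holds it, and variable where it lies inside an intron of another coding transcript of the gene. The sequences of the linker exons of Camk2b, Camk2d and Camk2g are shown because the isoforms differ by them, and they were read from the mm9 genome on the coding strand, with the exon in capitals and 12 intronic bases on each side in lower case. The 33-base exon of Camk2d (chr3:126505855-126505887, plus strand) and that of Camk2g (chr14:21567041-21567073, minus strand) open with the same bases. In Camk2d this exon is the linker exon of the deltaB isoform and is known for a nuclear localization signal.
Camk2d 33-base exon: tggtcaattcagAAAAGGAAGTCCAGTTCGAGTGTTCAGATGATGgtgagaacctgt
Camk2g 33-base exon: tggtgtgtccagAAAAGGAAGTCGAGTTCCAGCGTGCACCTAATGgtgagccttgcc
A middle class of exons, of 60 to 72 bases, was found in Camk2b (chr11:5882504-5882575, minus strand), Camk2d (chr3:126508775-126508834, plus strand) and Camk2g (chr14:21565014-21565082, minus strand).
Camk2b 72-base exon: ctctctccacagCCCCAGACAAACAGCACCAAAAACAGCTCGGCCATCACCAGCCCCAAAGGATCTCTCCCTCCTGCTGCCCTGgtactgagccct
Camk2d 60-base exon: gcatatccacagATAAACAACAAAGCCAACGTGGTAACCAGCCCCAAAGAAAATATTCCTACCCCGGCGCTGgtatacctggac
Camk2g 69-base exon: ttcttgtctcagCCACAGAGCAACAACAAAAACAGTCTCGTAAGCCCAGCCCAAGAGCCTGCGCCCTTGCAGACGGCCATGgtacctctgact
The exon that follows was variable in Camk2b (chr11:5881073-5881117, minus strand) and Camk2d (chr3:126511126-126511167, plus strand) and constant in Camk2g (chr14:21563826-21563870, minus strand).
Camk2b 45-base exon: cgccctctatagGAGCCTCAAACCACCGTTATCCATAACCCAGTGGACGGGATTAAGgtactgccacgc
Camk2d 42-base exon: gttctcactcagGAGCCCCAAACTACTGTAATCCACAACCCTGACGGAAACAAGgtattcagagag
Camk2g 45-base exon: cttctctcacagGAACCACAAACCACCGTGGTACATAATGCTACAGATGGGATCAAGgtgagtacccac
The remaining linker exons were modelled in Camk2b, 1 at the start of the linker (chr11:5887060-5887134) and 3 near its end, on the minus strand, of which the first 2 are shown (chr11:5878402-5878515 and chr11:5877815-5877943).
Camk2b 75-base exon: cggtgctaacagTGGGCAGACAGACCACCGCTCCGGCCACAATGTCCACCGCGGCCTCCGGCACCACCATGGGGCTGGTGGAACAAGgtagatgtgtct
Camk2b 114-base exon: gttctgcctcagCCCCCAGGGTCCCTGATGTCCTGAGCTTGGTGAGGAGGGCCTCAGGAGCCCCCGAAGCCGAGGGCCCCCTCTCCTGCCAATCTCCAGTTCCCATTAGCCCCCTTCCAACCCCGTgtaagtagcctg
Camk2b first 129-base exon: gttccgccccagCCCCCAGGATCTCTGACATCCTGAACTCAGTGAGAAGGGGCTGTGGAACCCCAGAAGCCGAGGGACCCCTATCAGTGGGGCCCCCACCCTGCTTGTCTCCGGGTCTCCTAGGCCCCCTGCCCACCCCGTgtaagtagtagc

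The numbers of transcripts set the 4 genes apart from each other. Camk2d, at chr3:126299220-126547972 on the plus strand (ENSMUSG00000053819.9), had 23 transcripts, of which 16 carried a protein identifier and are called coding here. Camk2b, at chr11:5869647-5966365 on the minus strand (ENSMUSG00000057897.7), had 16 transcripts, 11 of them coding. Camk2a, at chr18:61085272-61147806 on the plus strand (ENSMUSG00000024617.10), had 7 transcripts, 6 of them coding. Camk2g, at chr14:21554097-21613310 on the minus strand (ENSMUSG00000021820.9), had 4 transcripts, all coding. The order of transcript number followed the span of the genes, from 249 kb for Camk2d and 96.7 kb for Camk2b to 62.5 kb for Camk2a and 59.2 kb for Camk2g. As background, the median over the 22206 coding loci of the file was 2 transcripts and 1 coding transcript. At least 23 transcripts were modelled at 0.212% of the coding loci, at least 16 at 1.04%, at least 7 at 13.9% and at least 4 at 31.4%. The numbers of distinct exons were 64 in Camk2d, 51 in Camk2b, 29 in Camk2a and 23 in Camk2g.

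Start site groups, which hold the transcripts that the file assigns to one transcriptional start, numbered 9 in Camk2d, 4 in Camk2b, 4 in Camk2a and 1 in Camk2g, against a median of 1 over the coding loci. Counted over coding transcripts, the numbers were 5, 2, 4 and 1. The 12 listed genes that act with CaM kinase II or are related to it had 1 to 7 transcripts, with a median of 3. Among the calmodulin genes, Calm2 had 3 transcripts and Calm3 had 1, and the CaM kinase II inhibitor genes Camk2n1 and Camk2n2 had 1 each. Camk1, another calmodulin-dependent kinase, reached 7 transcripts, the number of Camk2a, and none of the 12 had more. The largest number of start site groups in the list was 5, in Pnck, which also codes for a calmodulin-dependent kinase.

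**Figure D1:**
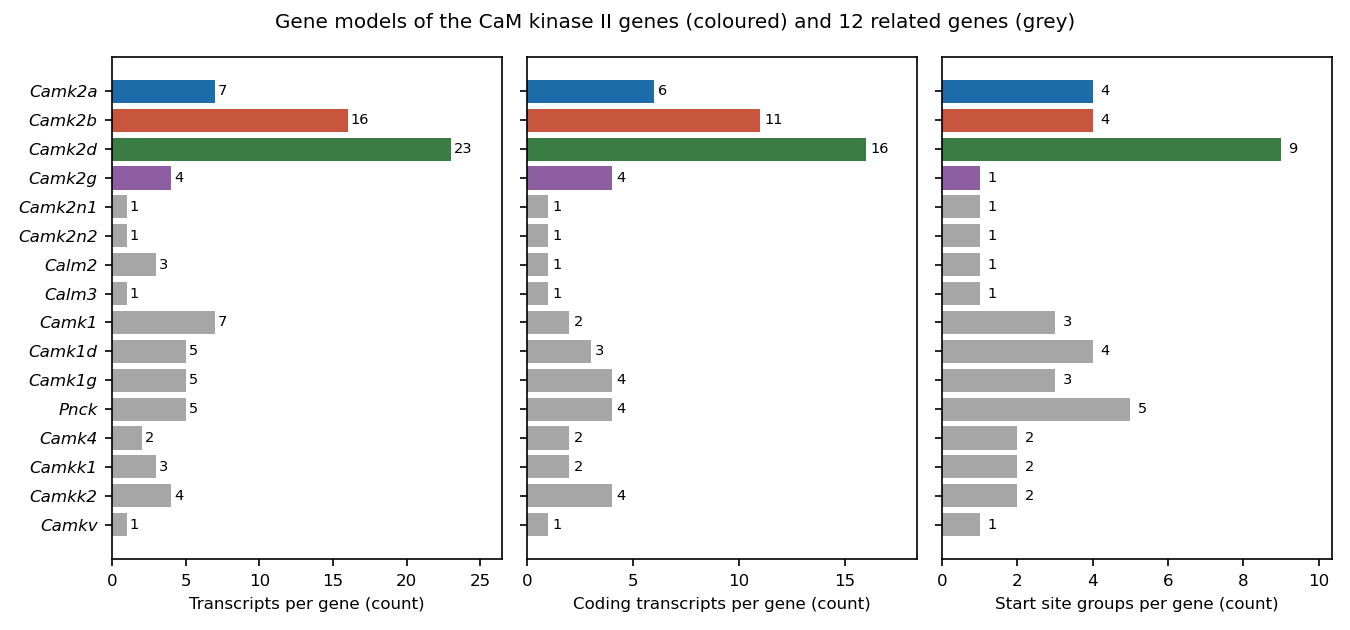
Transcripts (left), transcripts with a protein identifier (middle) and start site groups (right) of each gene, as counts on axes that start at 0, with the 4 CaM kinase II genes in colour and 12 related genes in grey. Camk2d and Camk2b, with 23 and 16 transcripts, stand above all 12 grey genes, whose highest count is 7, while Camk2g with 4 lies among them.

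All 50 transcripts matched the exons of a transcript of the same identifier in GENCODE M1, an annotation on mm9, and the presence of a coding sequence there matched the presence of a protein identifier in all 50. The annotation held 51 transcripts of the CaM kinase II genes, and 1 of Camk2d was not among the 50. It types 34 of the 50 as protein coding. A further 3, all of Camk2d, are typed as targets of nonsense-mediated decay, the pathway that degrades RNA with a premature stop codon. The 13 without a protein identifier consisted of 7 processed transcripts and 6 with a retained intron, although the file gives the biotype protein_coding for all 50. Of these 13, Camk2d held 7, Camk2b 5, Camk2a 1 and Camk2g 0. Among coding transcripts with an annotated start and stop codon, the open reading frame ranged from 108 to 489 codons in Camk2a, from 374 to 666 in Camk2b, from 111 to 533 in Camk2d and from 211 to 529 in Camk2g. The longest frame, with 666 codons, belonged to the Camk2b transcript that held all 6 variable linker exons.

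**Figure D2:**
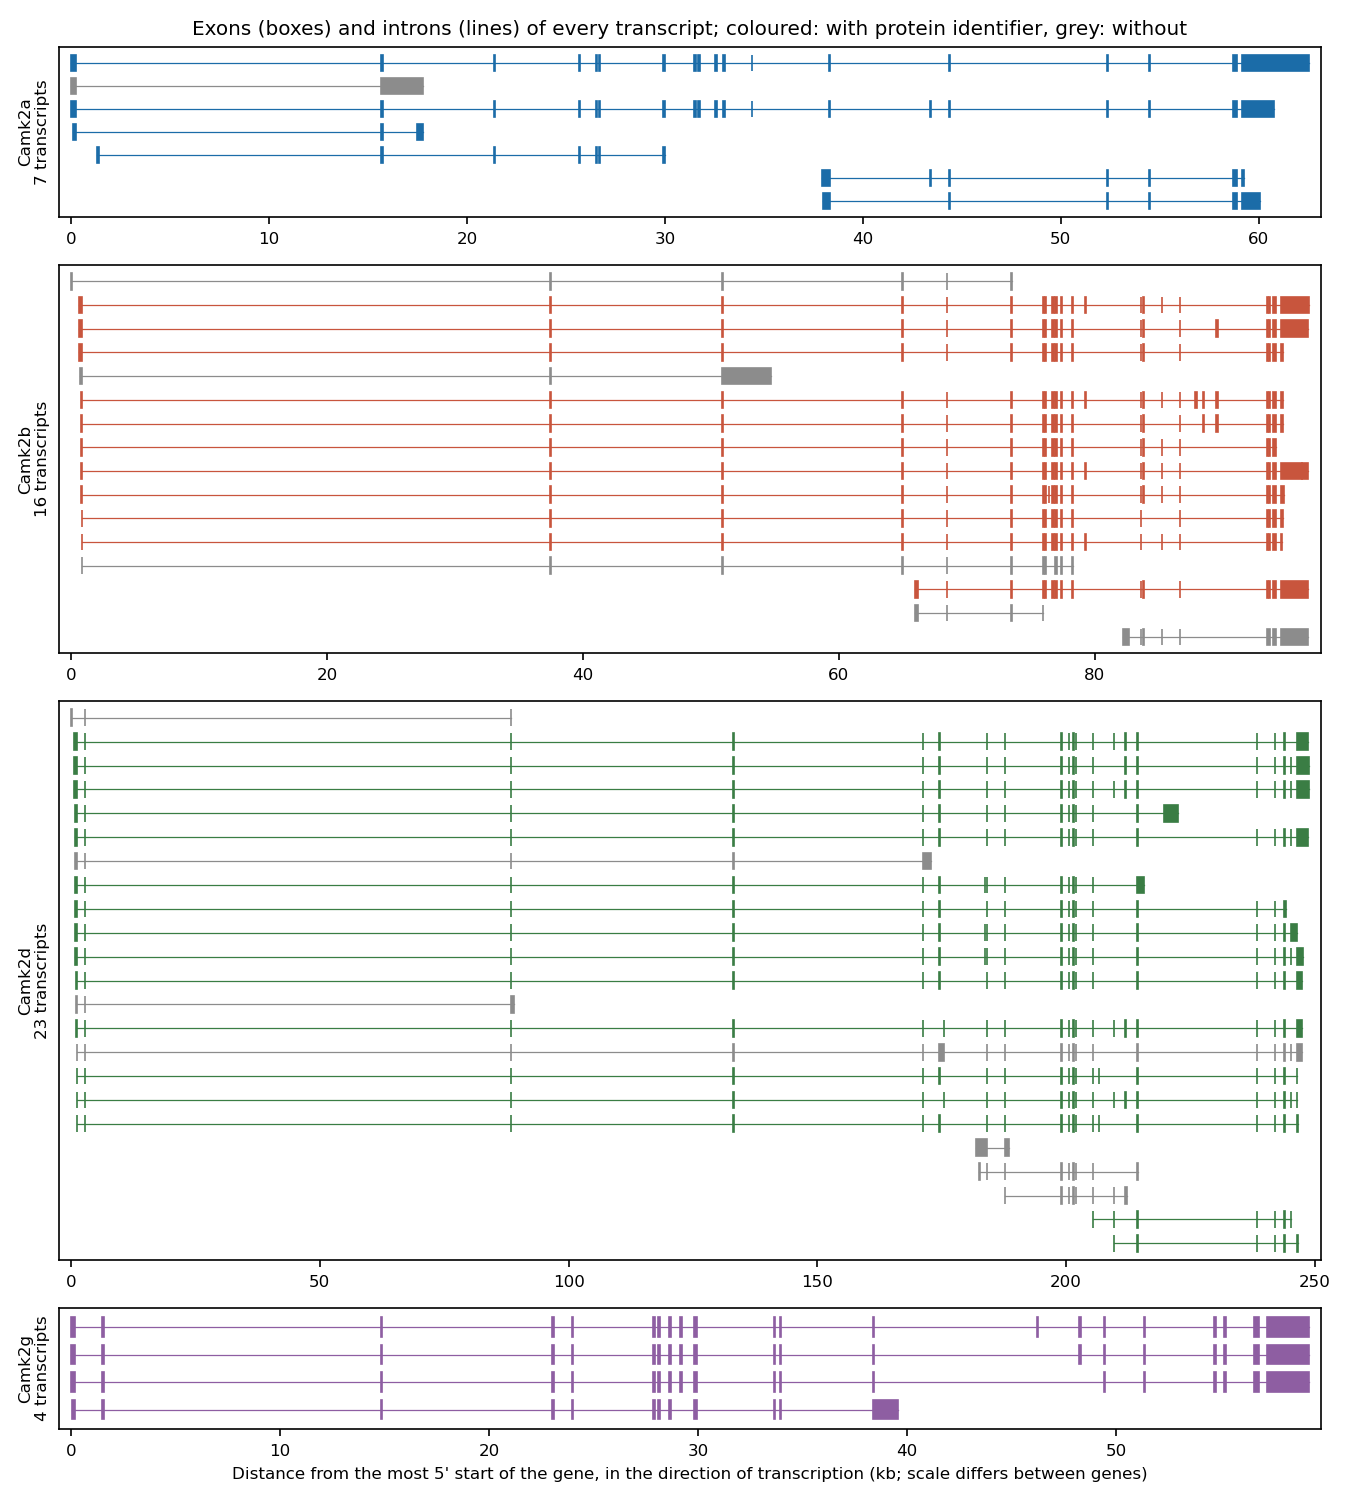
Exons (boxes, with outlines that widen the shortest) and introns (lines) of the 50 transcripts, 1 row each, against the distance in kb from the most 5′ start of the gene, with coding transcripts in colour and the others in grey. The scale differs between the panels; the rows that begin far to the right are the internally started transcripts, 2 in Camk2a, 3 in Camk2b and 5 in Camk2d.

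Outside the linker the 4 genes shared one exon plan. Each had 14 exons of equal length in the same order, with 11 before the linker (95, 60, 55, 66, 73, 103, 84, 95, 123, 84 and 43 bases), 1 of 49 bases within it, and exons of 76 and 95 bases after it. These exons summed to 1101 bases, of which 881 lay before the linker. The next exon, which codes for part of the hub, differed in length, with 229 bases in Camk2a and Camk2d, 234 in Camk2b and 245 in Camk2g. Over the 1101 bases, Camk2a and Camk2b were the most alike pair, with 80.8% identical bases, and Camk2d and Camk2g the least, with 76.9%. The other 4 pairs lay between 77.0% and 79.2%. These values use the first of the pair of 73-base exons that Camk2d holds. With the second, Camk2d had 79.0% with Camk2a, 79.8% with Camk2b and 76.6% with Camk2g. The most and the least alike pairs stayed the same. By exon, the 66-base exon had the highest mean identity over the 6 pairs, 87.1%. The 73-base exon had a mean of 71.0% with the first of the pair of 73-base exons that Camk2d holds, below the 74.2% of the first 95-base exon, and of 74.7% with the second, above it.

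**Figure D3:**
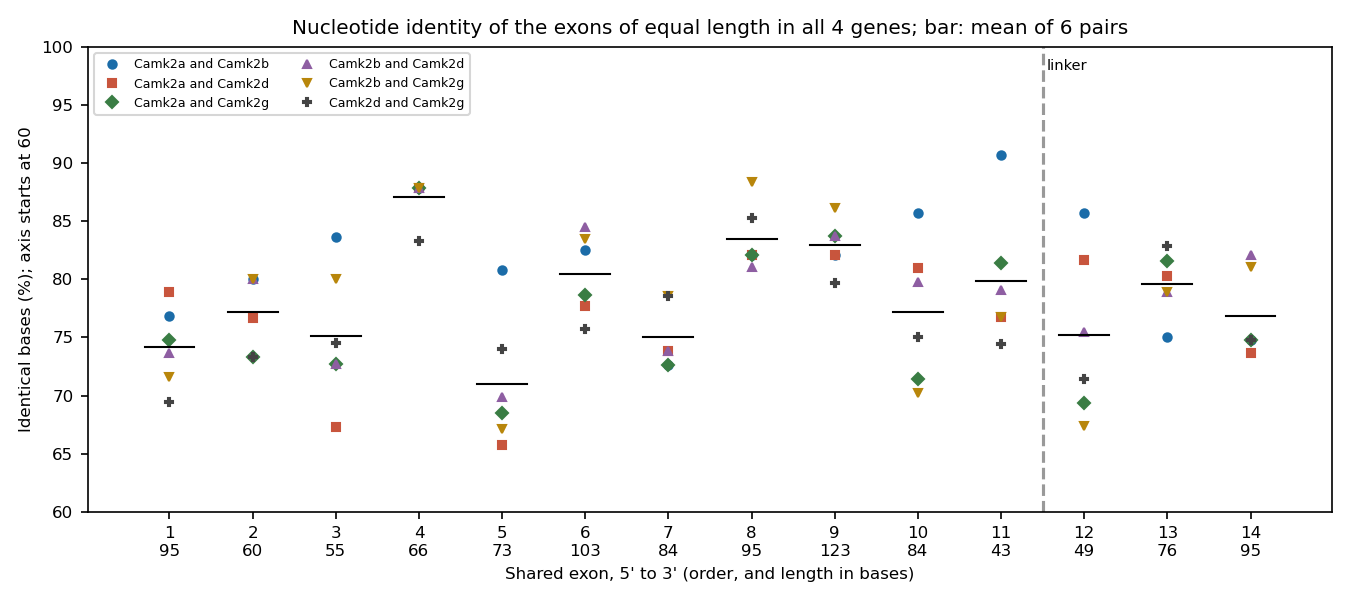
Percentage of identical bases (axis from 60 to 100) in each of the 14 exons of equal length, in 5′ to 3′ order, with a marker for each of the 6 gene pairs and a bar for their mean. The 66-base exon has the highest mean, 87.1%. The 73-base exon is drawn with the first of the pair that Camk2d holds, for which its mean is 71.0% (74.7% with the second). The dashed line marks where the linker begins.

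The linker itself spanned 17.9 kb of the genome in Camk2a, 15.2 kb in Camk2b, 36.3 kb in Camk2d and 20.7 kb in Camk2g. The 12 variable exons were 1 in Camk2a, 6 in Camk2b, 3 in Camk2d and 2 in Camk2g. All 12 had a length that is a multiple of 3, so that skipping any of them leaves the frame as it was. Of the 16544 variable internal exons of coding transcripts in the whole file, 49.8% had such a length, and of the 7 variable exons of the 4 genes outside the linker, 2 did. The linker exons were 33 to 129 bases long with a median of 64.5, against a median of 107 over the file. Of the 12, 8 began on a codon boundary and 4, the 75-base, 114-base and both 129-base exons of Camk2b, began after the first base of a codon. No in-frame stop codon lay in any of the 12, and all 19 variable exons of the 4 genes were bounded by AG and GT in the introns.

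The exons combined into 18 different linkers over the 28 coding transcripts that reached from the 43-base to the 76-base exon. Camk2a had 2 linkers, of 90 and 123 bases, which differed by the 33-base exon at chr18:61128665-61128697. Its full-length forms had 478 codons without this exon and 489 with it, and are known as the alpha and alphaB subunits. The exon was held by 2 of the 4 coding transcripts that span it, 1 of the 2 full-length and 1 of the 2 internally started ones.

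Camk2b had 8 linkers in 11 coding transcripts, from 90 to 651 bases, a range of 187 codons. The 72-base exon was held by 9 of the 11, the 45-base exon by 6 and the 75-base exon by 4. In the run of 3 exons that follows the constant 49-base exon, the second 129-base exon was held by 3 transcripts, both 129-base exons by 2 and all 3 exons by 1. No transcript held an upstream exon of this run without those downstream of it. The shortest linker joined the 41-base and 49-base exons directly, with the same exon lengths as the shortest linker of Camk2a, and gave a frame of 479 codons.

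Camk2d had 5 linkers in 12 coding transcripts, from 87 to 189 bases, a range of 34 codons. The linker with none of the variable exons, that of the form known as deltaC, was in 5 transcripts. Of these, 2 are typed as targets of nonsense-mediated decay and have a stop codon upstream of the linker. The other 3 code for this linker. The 60-base and 42-base exons together, the linker of the form known as deltaA, were in 4. The 33-base exon, that of the deltaB linker, was in 2 transcripts, and the 42-base exon alone was in 1. No transcript held the 33-base exon together with either of the others. These names refer here to the linker alone, and transcripts with the same linker could end at different stop codons. Both transcripts with the 33-base exon used the stop codon downstream of the 89-base exon, which is described below.

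Camk2g had 3 linkers in 3 coding transcripts, from 138 to 240 bases, also a range of 34 codons. They were nested, with none of the variable exons, the 69-base exon, or the 33-base and 69-base exons. Its shortest linker was longer than that of the other 3 genes and contained the 45-base exon, which every transcript that reached it held.

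**Figure D4:**
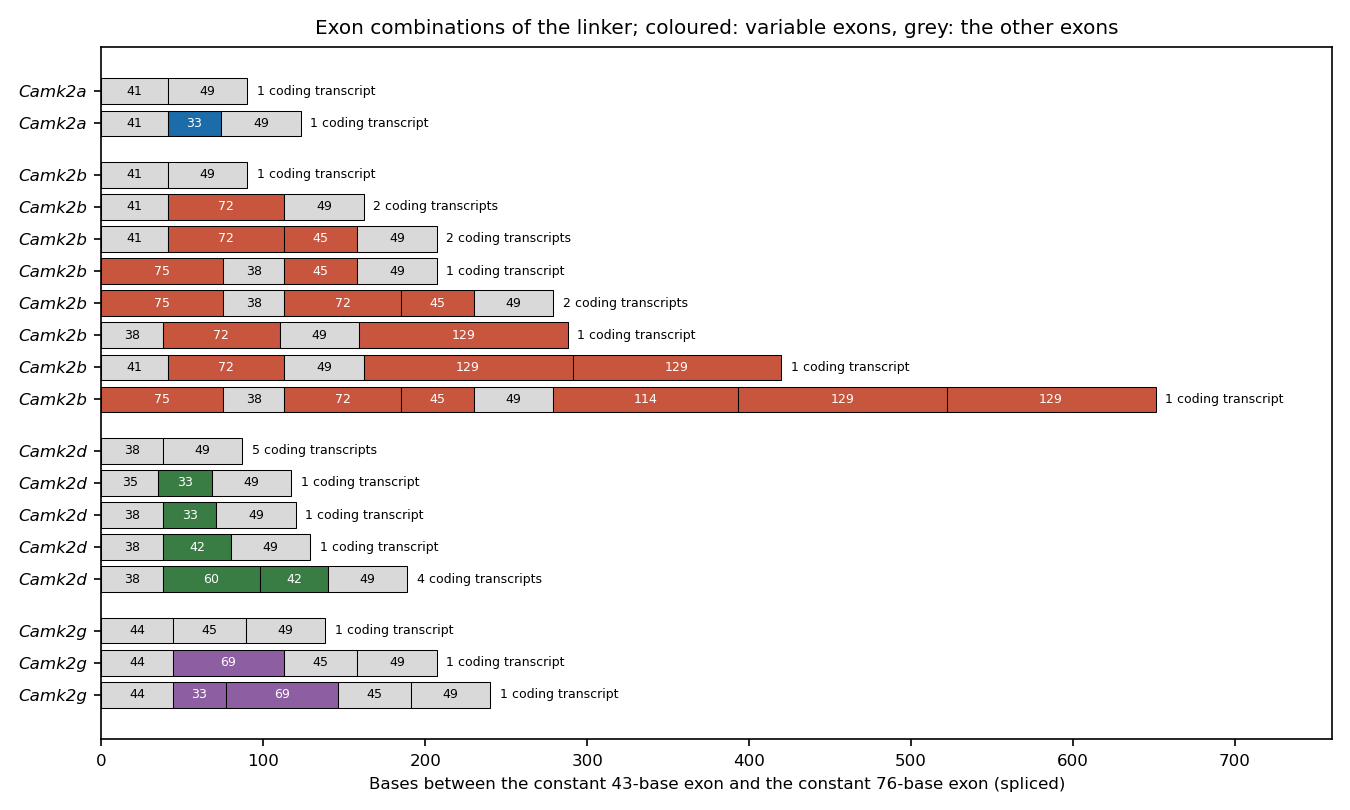
The 18 exon combinations between the constant 43-base and 76-base exons, drawn to scale in spliced bases with each exon's length printed in it, variable exons in colour and other exons in grey. Camk2b has 8 combinations and the longest, 651 bases; the shortest, 87 bases, belongs to Camk2d and is held by 5 coding transcripts.

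The exons of like position were compared in sequence. Between the 33-base exons, 28 of 33 bases (84.8%) were identical for Camk2a and Camk2d, 28 of 33 for Camk2a and Camk2g, and 26 of 33 (78.8%) for Camk2d and Camk2g. Camk2b had no 33-base exon in its linker. Between exons of unlike length, gaps were counted as positions that differ. The 45-base exon of Camk2b shared 75.6% of aligned positions with the 42-base exon of Camk2d and 71.1% with the constant 45-base exon of Camk2g. The 42-base exon of Camk2d and this exon of Camk2g shared 64.4%. The 72-base exon of Camk2b shared 66.2% with the 69-base exon of Camk2g and 59.7% with the 60-base exon of Camk2d. The 60-base exon of Camk2d and the 69-base exon of Camk2g shared 53.2%. The median over all 66 pairs of variable linker exons, a set that includes pairs given above, was 41.7%. Gaps lower this value for pairs of very unlike length, such as 33 against 129 bases, so it is no background for exons of like length. The 75-base and 72-base exons of Camk2b, which differ in position, shared 51.7%, close to the value of the 60-base and 69-base exons. Within Camk2b, the 114-base exon and the first 129-base exon shared 68.2% of aligned positions.

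The linker exon of 41 or 38 bases in Camk2b and of 38 or 35 bases in Camk2d had a pair of acceptor sites 3 bases apart. It so differed by a codon between transcripts. This exon came directly after the 43-base exon, except in the 4 Camk2b transcripts that held the 75-base exon between them. The windows hold 20 intronic bases in lower case and 10 exonic bases in capitals, for Camk2b at chr11:5882755-5882784 and chr11:5882752-5882781 on the minus strand and for Camk2d at chr3:126504622-126504651 and chr3:126504625-126504654 on the plus strand. They are shown because the CAG repeated at the junction is what both genes share.
Camk2b acceptor of the 41-base form: ctccttccttcccaatgcagCAGCCAAGAG
Camk2b acceptor of the 38-base form: cttccttcccaatgcagcagCCAAGAGTTT
Camk2d acceptor of the 38-base form: attttactctcattttgcagCAGCCAAGAG
Camk2d acceptor of the 35-base form: ttactctcattttgcagcagCCAAGAGTTT
In Camk2b the 41-base form was in 6 coding transcripts and the 38-base form in 5. All 4 transcripts with the 75-base exon upstream had the 38-base form, and of the 7 without it, 6 had the 41-base form and 1 the 38-base form. In Camk2d the 38-base form was in 13 coding transcripts and the 35-base form in 1, a transcript that held the 33-base exon.

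Outside the linker, Camk2d held a pair of 73-base exons of which 12 coding transcripts used the first (chr3:126473703-126473775) and 2 the second (chr3:126474692-126474764). Both occupy the place of the 73-base exon in the kinase region of the other 3 genes and keep the frame in place of each other. They are shown in capitals as above, on the plus strand.
Camk2d first 73-base exon: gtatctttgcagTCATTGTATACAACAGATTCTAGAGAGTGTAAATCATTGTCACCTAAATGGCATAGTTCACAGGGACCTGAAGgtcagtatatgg
Camk2d second 73-base exon: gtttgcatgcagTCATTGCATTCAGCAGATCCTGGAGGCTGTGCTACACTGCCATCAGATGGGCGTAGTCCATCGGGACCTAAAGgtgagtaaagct
The pair was identical at 50 of 73 positions (68.5%). The second exon, held by fewer transcripts, had 83.6% identical bases with the 73-base exon of Camk2a and 79.5% with that of Camk2b, against 65.8% and 69.9% for the first. With Camk2g the order was the other way, with 74.0% for the first exon and 68.5% for the second.

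The other variable exons outside the linker moved the stop codon or were held by a single transcript. In Camk2d, a 99-base exon (2 coding transcripts) and a 55-base exon with the same 3′ end (1 coding transcript) each contained a stop codon. Those 3 transcripts are the ones typed as targets of nonsense-mediated decay, with frames of 111, 142 and 147 codons. Near the 3′ end of Camk2d, an 89-base exon held by 5 of 11 coding transcripts contained a stop codon that 4 transcripts used, while 6 coding transcripts used one further downstream. In Camk2g, 1 of 4 coding transcripts skipped the 95-base exon of the kinase region, which shifted the frame and gave a stop codon in the next exon after 211 codons. In Camk2b, a 33-base exon in the kinase region (chr11:5889939-5889971, minus strand) was held by 1 of 11 coding transcripts. All 11 coding transcripts of Camk2b shared 1 stop codon, against 2 stop codons in Camk2a, 2 in Camk2g and 6 in Camk2d.

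Camk2a had an internal start. Of its 4 start site groups, 3 lay within 1.33 kb of the most 5′ end of the gene and 1 lay 37.9 kb downstream, after 11 constant exons. The group at 1.33 kb was a single transcript that is marked in the annotation as lacking a start codon and can be incomplete at the 5′ end. The internal group held 2 coding transcripts with 5′ ends at chr18:61123208 and chr18:61123254, 46 bases apart. Their first exons, of 410 and 364 bases, ended with the constant 41-base exon of the linker and reached 369 and 323 bases upstream of it, into an intron of 3877 bases. Both started translation at chr18:61123501, with 76 coding bases before the 41-base exon, and stopped at the stop codon of the full-length forms. The transcript with the 33-base exon had 7 exons and 200 codons, and the transcript without it had 6 exons and 189 codons. Neither held any of the 11 shared exons that precede the linker, which code for the kinase domain and the regulatory segment. A product of Camk2a that lacks the kinase domain, alphaKAP, is known from skeletal muscle as an anchoring protein for the kinase.

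**Figure D5:**
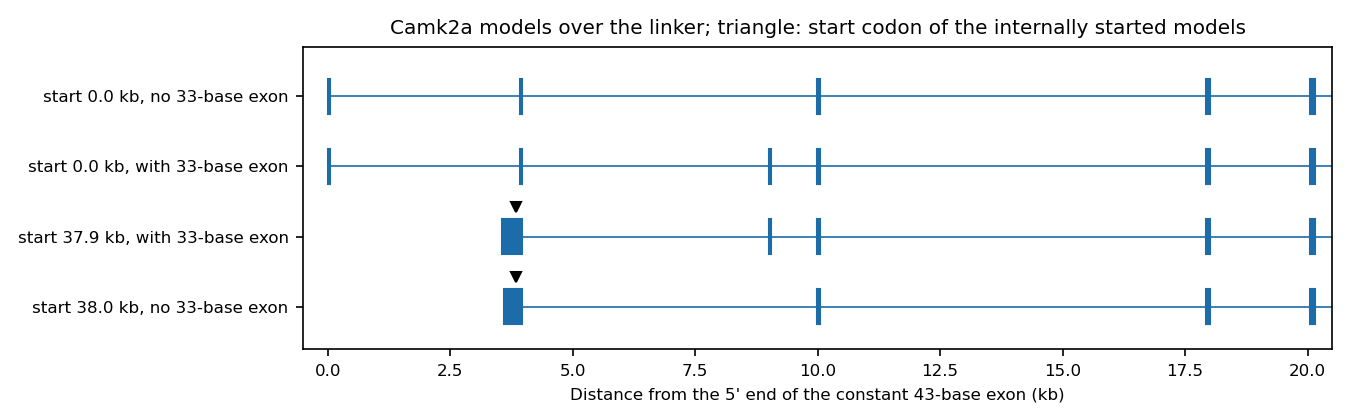
The 4 coding transcripts of Camk2a that cover the linker, against the distance in kb from the 5′ end of the constant 43-base exon, with exons as boxes, labelled by the distance of their start from the first 5′ end of the gene and by the 33-base exon. The 2 internally started transcripts open with a first exon of 410 or 364 bases and share a start codon (triangle), and 1 of each kind holds the 33-base exon.

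Of the other 3 genes, Camk2b and Camk2d also had transcripts that start after a constant exon, and Camk2g had none. Camk2b had 3 such transcripts in 2 groups, 1 of them coding. The coding one started 65.9 kb downstream, after 3 constant exons, with a first exon of 245 bases, and its frame of 374 codons opened within the 73-base exon of the kinase region. The other group, 82.2 kb downstream, held a single processed transcript with no protein identifier, which began in the linker after the same 11 exons as in Camk2a. Camk2d had 5 such transcripts, each in a group of its own. The 2 coding ones, 205 and 209.6 kb downstream, are marked in the annotation as lacking a start codon and can be incomplete at the 5′ end.

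Some 5′ ends coincided with the start codon. In Camk2d, 1 group of 3 coding transcripts began on the first base of the start codon, and this group included both transcripts with the 33-base exon. In Camk2b, 1 coding transcript did so. These ends are limits of the model and give no position of a start site.

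The hexamer TGCATG, the core site of the RBFOX family to which the splicing factor A2BP1 of the study belongs, was searched on the transcribed strand within 150 intronic bases on each side of a variable exon. It lay beside 2 of the 12 linker exons (16.7%), against 11.8% of the 16544 variable internal exons of coding transcripts in the file. It also lay beside 3 of the 7 variable exons outside the linker. The windows below are on the coding strand with the hexamer in capitals, and are shown because they are the nearest match of 4 of these 5 exons.
Camk2g 105 bases downstream of the 33-base exon (chr14:21566919-21566948, minus strand): actcatcctcacTGCATGtctgtgctgtgt
Camk2g 69 bases upstream of the 95-base exon (chr14:21584229-21584258, minus strand): ggttctgagcccTGCATGgcctttcttggt
Camk2d 9 bases upstream of the second 73-base exon (chr3:126474671-126474691, plus strand): ccccctggtgttTGCATGcag
Camk2d 56 bases downstream of the 89-base exon (chr3:126544535-126544564, plus strand): ttctggaaaagcTGCATGgctggtgttctt
With 300 bases on each side, 4 of the 12 linker exons (33.3%) had a match, against 20.7% over the file, and all 7 exons outside the linker did, of which the 99-base and 55-base exons of Camk2d share a match. The shorter GCATG, which every TGCATG contains, lay within 150 bases of 4 of the 12, against 27.0% over the file. A match says that these letters are in the window and nothing of whether a protein binds them.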

How the data were processed

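The authors sequenced poly(A) RNA of 12 pools, and processing notes of the submitters list mm9 (NCBIM37), TopHat, Cufflinks, Cuffdiff and CASAVA, whose versions the sources used here do not give. The deposited file is 1 set of gene models with exon coordinates and no count, score or expression value per sample. It has 0 columns of values per sample, so no test was made. Other files of the study were not used here.

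Transcripts were taken by gene name. Coding transcripts carry a protein identifier. Constant and variable exons, exon chains, start site groups and 5′ ends were compared by exact position. Sequences were read from the NCBIM37 genome, coding frames from GENCODE M1. Exons of equal length were compared base by base, and others by global alignment. Python 3.11.15, pysam 0.24.0, Biopython 1.88, numpy 2.4.6 and matplotlib 3.10.9 were used, and the steps were tested on simulated gene models.

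The members and the related genes were chosen with earlier results of these data known. Beside the 12 related genes given, 1 more had been listed and is not reported here, nor are the sequences of 2 linker exons. The linker was to be the stretch between neighbouring constant exons with the most variable exons. This tied in Camk2b, where 2 stretches had 3 each, and fell in the kinase region of Camk2d, with 4, so the stretch between the 43-base and 76-base exons was used, chosen after the models were seen.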

Additional observations from a re-analysis of the deposited data

How the results depend on the processing

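Models and coordinates rest on the annotation the submitters supplied, carry no depth or replicate error, and do not tell which transcripts NAc expressed. No paired analysis was possible because the columns carry no values per pool, and no pool could be left out. Of 72 alternatives, 63 stayed within 1.5-fold of the count they were set against, 51 of them with no change. For linker exons, combinations and motifs that count was the one from the stretch with the most variable exons. Counting distinct 5′ ends in place of start site groups gave 13 in Camk2b, 18 in Camk2d and 2 in Camk2g, and counting groups of coding transcripts gave 2 in Camk2b and 5 in Camk2d. Taking the linker as the stretch with the most variable exons gave 3 exons and 6 combinations in Camk2b in place of the 6 and 8 reported. In Camk2d it gave the kinase stretch with 4, of which 2 were skipped by an exact intron. For the 10 exons so chosen, TGCATG lay beside 2, beside 5 with flanks of 300 bases, and GCATG beside 4. The 2 transcripts of Camk2a with an internal start were coding, and no other transcript of the gene added to them.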
